A study of Mus musculus with 8 samples.

Results

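Integrins are cell-surface receptors made of an alpha and a beta chain, and T cells use them to hold on to vessel walls, to antigen-presenting cells and to the tissue around them. Here 8 integrin chain genes of T cells (Itgal, Itga4, Itgae, Itgav, Itgb1, Itgb2, Itgb3 and Itgb7) and Cd44, which encodes the receptor for hyaluronan, were followed across all 8 arrays of the series. Every probe set that the platform annotation gives to one of these symbols was taken, which came to 28 of 45037 probe sets, and all 9 genes were among the 12520 named genes tested. The members are named genes, and no measured value enters the rule, but they were picked with earlier results of these data known.

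The cells were CD8 T cells, the lymphocytes that recognise peptides on MHC class I, selected with magnetic beads from spleens of C57BL/6 mice and kept for 18 h at 10 T cells to each dendritic cell, all of which were raised from bone marrow. In 3 groups the dendritic cells carried the ovalbumin peptide N4: p50 cRel DKO N4 (no p50 and no c-Rel, both subunits of NF-kB), PKC theta KO N4 (no PKCθ, a kinase that acts between the T cell receptor and NF-kB) and WT N4. In the fourth, WT non-pulsed, wild-type T cells met dendritic cells without peptide, and neither knockout was measured in that condition. Each group had 2 arrays, dendritic cells were taken out by CD11c selection before RNA was isolated, and the sources used here name no T cell receptor transgene, age or sex and do not say whether animals were pooled. The 2 arrays of a group are not said to stem from different mice, so p-values measure only the spread between these arrays, which may be technical.

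Which chains pair decides what a cell can bind. Itgal and Itgb2 together form LFA-1, which binds ICAMs and closes the contact between a T cell and an antigen-presenting cell. The chain encoded by Itga4 pairs with that of Itgb1 to bind VCAM-1 and fibronectin, or with that of Itgb7 to bind MAdCAM-1 of gut vessels. Itgae encodes CD103, which pairs with the Itgb7 chain and binds E-cadherin on epithelium. Itgav and Itgb3 encode the chains of the vitronectin receptor, and CD44 is a widely used marker of antigen-experienced T cells.

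The Itga4 chain has a choice of beta partners, of which Itgb7 but not Itgb1 passed the test below, so the 250 bases before the RefSeq start of Itga4, Itgb7 and Itgb1 (GRCm38.p6) are shown, 5′ to 3′ on the strand of the gene. A promoter was in the table for 5 of the 9 genes: these 3, Itgav and Cd44. The window of Itga4 is chr2:79255176-79255425 on the plus strand, that of Itgb7 is chr15:102231936-102232185 on the minus strand and that of Itgb1 is chr8:128685404-128685653 on the plus strand. The Itgb7 window lies inside the gene's RefSeq span, chr15:102215994-102233405, since the table starts from a transcript that begins within it. Capitals mark matches to the motifs searched.
Itga4 promoter: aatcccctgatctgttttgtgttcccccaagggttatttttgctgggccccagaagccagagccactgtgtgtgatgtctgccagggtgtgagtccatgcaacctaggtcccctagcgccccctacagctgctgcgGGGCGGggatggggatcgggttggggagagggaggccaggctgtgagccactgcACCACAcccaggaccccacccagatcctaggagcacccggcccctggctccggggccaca
Itgb7 promoter: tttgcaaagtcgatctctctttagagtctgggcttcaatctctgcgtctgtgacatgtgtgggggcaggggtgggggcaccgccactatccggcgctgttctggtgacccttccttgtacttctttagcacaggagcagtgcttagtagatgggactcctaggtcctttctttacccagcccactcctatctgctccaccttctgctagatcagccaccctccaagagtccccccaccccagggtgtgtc
Itgb1 promoter: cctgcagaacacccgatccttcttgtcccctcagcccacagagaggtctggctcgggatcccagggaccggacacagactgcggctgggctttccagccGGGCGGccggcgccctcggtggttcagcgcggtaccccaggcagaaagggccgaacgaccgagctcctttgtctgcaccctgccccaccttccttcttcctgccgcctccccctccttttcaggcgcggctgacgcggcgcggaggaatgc
The motifs were the runt motif TGTGGT, the GC box GGGCGG, the ETS motif GGAAGT, the E-box CACGTG and the NF-kB consensus, each on both strands. The Itga4 window held 1 runt motif, on the minus strand 60 to 55 bases before the start, and 1 GC box. The Itgb1 window held 1 GC box and the Itgb7 window held no match. Over all 32851 promoters of the table, 14% had a runt motif, 32.7% a GC box and 7.25% an NF-kB consensus in the same window. No NF-kB consensus and no E-box was found in the windows of the 5 genes, which says only that these letters are not there.

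The 2% trimmed mean signal of each array was 500, and levels are given here as log2(signal + 16), so that 1 unit is a doubling for genes well above 16. Genes were compared with limma in 1 fit of all 8 arrays, and a change was called at a Benjamini-Hochberg adjusted p under 0.05 over the 12520 genes. Where a gene had several probe sets, the brightest was used. The median signal of an array ran from 33.6 to 70.3, and the correlation across genes within a pair of arrays from 0.977 to 0.987. Rel, one of the targeted genes, had levels of 6.19 and 5.92 in p50 cRel DKO N4 cells, against 9.82 and 9.53 in WT N4 cells (log2 difference −3.62, adjusted p = 0.000984). Prkcq, which encodes PKCθ, had 11.0025 and 10.75 in PKC theta KO N4 cells, against 11.74 and 11.35 in WT N4 cells (log2 difference −0.66, adjusted p = 1), and where its probes lie relative to the deletion is unknown here, so this does not check the label. The p50 gene was not analysed here. The X-linked transcript Xist was at 12.3 to 12.6 on all 4 knockout arrays, at 5.18 and 6.65 in WT N4 cells, and at 6.05 and 11.84 in WT non-pulsed cells, while Y-linked Eif2s3y was at 5.42 to 6.72 in the knockouts and at 10.65 to 11.20 on the 4 wild-type arrays. Genotype and sex-linked expression therefore cannot be told apart in any comparison of a knockout with wild type, and WT non-pulsed replicate 2 carried both transcripts.

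The question of the first comparison is what 18 h with the peptide does to the adhesion receptors of wild-type cells. In WT N4 cells 7 of the 9 genes fell relative to WT non-pulsed cells and none rose, with a median log2 difference of −1.03 over the members against −0.10 over all genes. Itgae, Itga4, Itgb3 and Itgb7 fell most, Cd44, Itgb2 and Itgal fell less, and Itgb1 and Itgav did not pass. The background was wide: 40.7% of all genes were called in this comparison, with 23.5% of all genes lower and 17.2% higher.

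**Figure D1:**
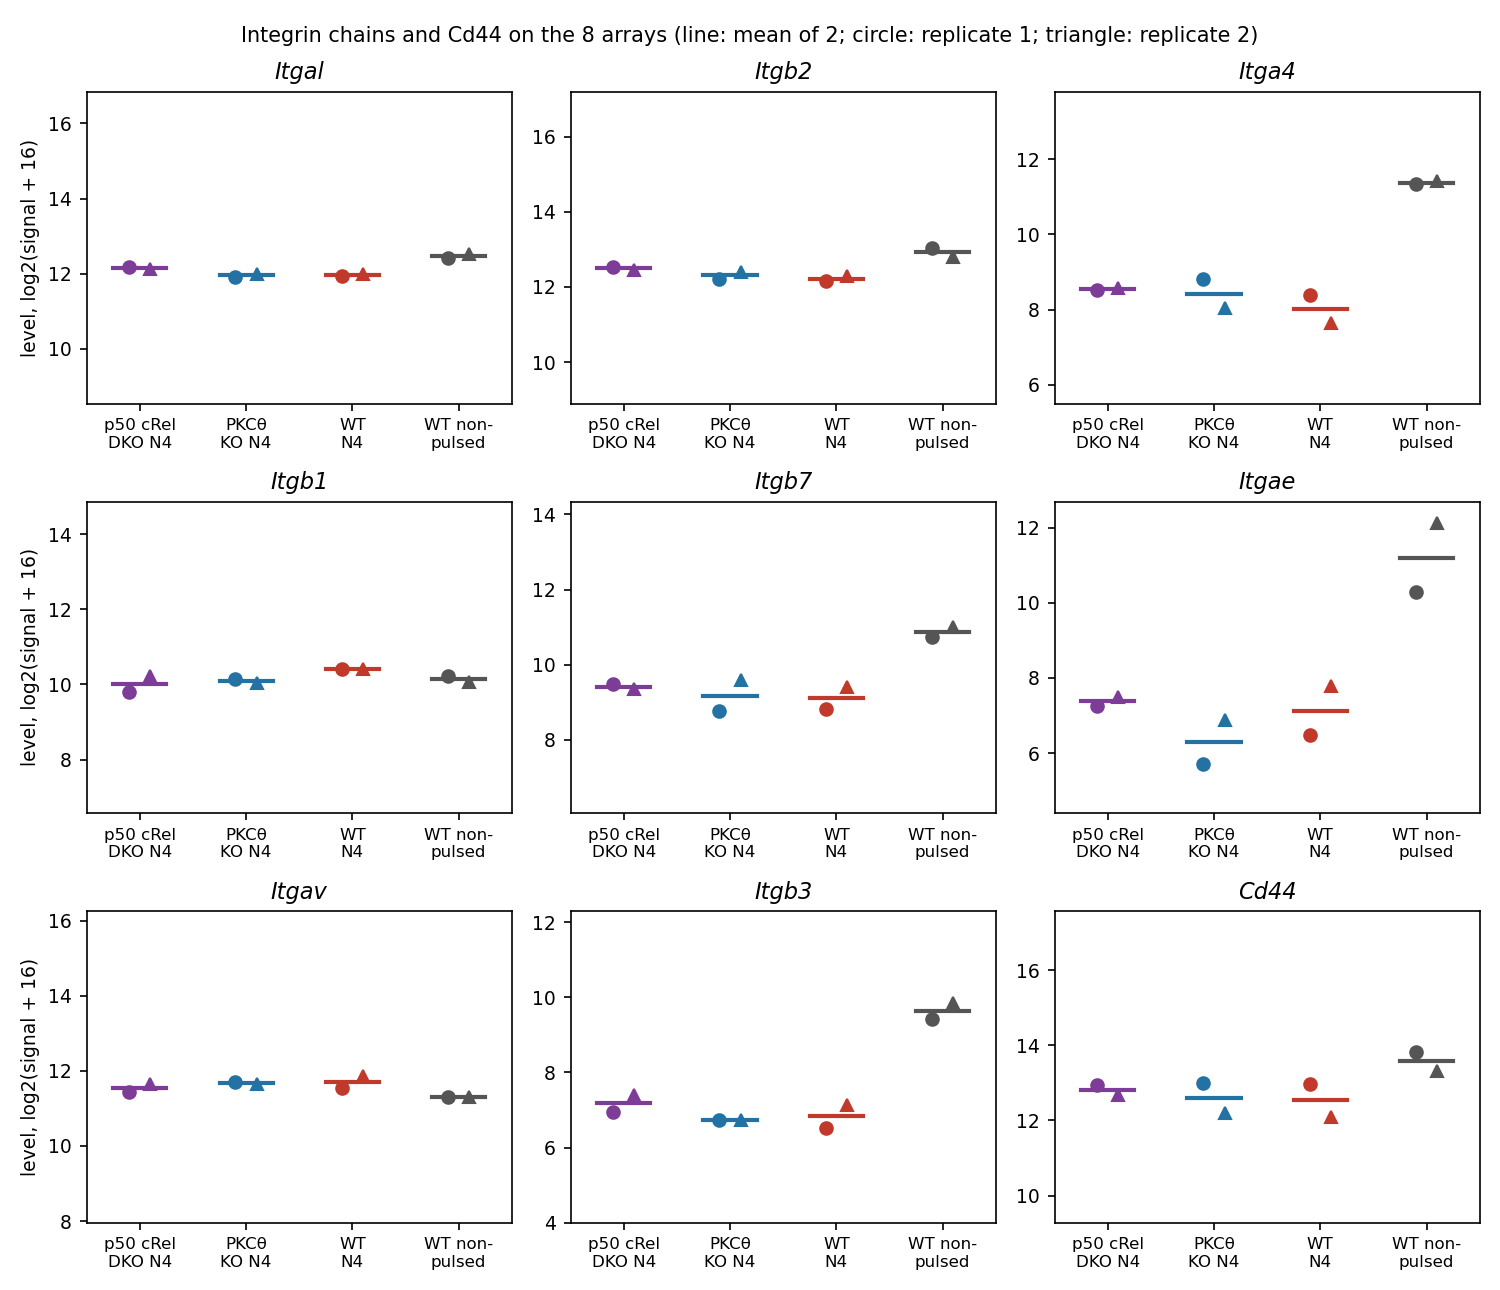
Level of each gene, log2(signal + 16), on the 8 arrays by group; points are arrays and the horizontal line is the mean of 2, and every panel spans the same number of log2 units. The WT non-pulsed arrays stand above all 6 N4 arrays for Itgal, Itgb2, Itga4, Itgb7, Itgae, Itgb3 and Cd44, and below them for Itgav.

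Of the 7 genes that fell, the 2 chains of LFA-1 had the smallest differences. The alpha chain gene Itgal had levels of 11.95 and 12.00 in WT N4 cells, against 12.41 and 12.53 in WT non-pulsed cells. The beta chain gene Itgb2 had 12.15 and 12.30 in WT N4 cells, against 13.05 and 12.80 in WT non-pulsed cells. For both genes the groups did not overlap, which held for 68.4% of all 12520 genes in this comparison. The distance between the groups was under 1 log2 unit. Itgal fell by 0.50 log2 units (SE 0.12, adjusted p = 0.00967) and Itgb2 fell by 0.70 (SE 0.14, adjusted p = 0.00366). A second, dimmer Itgal probe set ran the other way, with 9.16 and 8.91 in WT N4 cells against 8.87 and 8.77 in WT non-pulsed cells, and did not pass (log2 difference 0.22, adjusted p = 0.48 over 27022 probe sets). The fall of Itgal therefore rests on 1 of its 2 probe sets, and it was lost with the mean of both (log2 difference −0.14, adjusted p = 0.444). It was also lost without WT N4 replicate 1 (log2 difference −0.47, adjusted p = 0.0656) or WT non-pulsed replicate 2 (log2 difference −0.44, adjusted p = 0.0631).

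The alpha chain shared by the VCAM-1 and MAdCAM-1 receptors was much lower. Itga4 had levels of 8.38 and 7.65 in WT N4 cells, against 11.35 and 11.41 in WT non-pulsed cells, so that the 2 groups were about 3 units apart. The log2 difference was −3.37 (SE 0.30, 95% interval −4.05 to −2.69, adjusted p = 8.22e-05), a 10.3-fold lower value on the scale of signal + 16. All 4 Itga4 probe sets above the filter were lower in WT N4 cells, and all 4 passed when every probe set was tested.

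Of its 2 beta partners, Itgb7 fell and Itgb1 did not pass. Itgb7 had 8.83 and 9.40 in WT N4 cells, against 10.74 and 11.004 in WT non-pulsed cells, and fell by 1.76 log2 units (SE 0.29, adjusted p = 0.00166). Itgb1, the beta chain of the fibronectin and collagen receptors, had 10.41 and 10.42 in WT N4 cells, against 10.23 and 10.08 in WT non-pulsed cells. Its log2 difference of 0.26 (SE 0.18, 95% interval −0.15 to 0.66) did not pass the test (adjusted p = 0.29), and that interval holds no fall of the size seen for Itgb7. The next brightest Itgb1 probe set had a difference of 0.47 and the third one of −0.20, and neither passed.

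CD103 showed the largest difference of the 9 genes. Itgae had 6.48 and 7.78 in WT N4 cells, against 10.28 and 12.11 in WT non-pulsed cells. The arrays of each group lay more than 1 unit apart, and the groups did not overlap. Itgae fell by 4.07 log2 units (SE 0.64, 95% interval −5.53 to −2.61, adjusted p = 0.00129), and its other probe set had 5.81 and 5.97 in WT N4 cells against 9.08 and 10.61 in WT non-pulsed cells.

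Of the vitronectin receptor chains, Itgb3 fell and Itgav did not pass. Itgb3 had 6.53 and 7.14 in WT N4 cells, against 9.42 and 9.86 in WT non-pulsed cells, and fell by 2.81 log2 units (SE 0.29, adjusted p = 0.000174). Itgav, the alpha chain, had 11.56 and 11.85 in WT N4 cells, against 11.30 and 11.31 in WT non-pulsed cells. Both WT N4 arrays were above both WT non-pulsed arrays, but the log2 difference of 0.40 (SE 0.15) did not pass (adjusted p = 0.0596). Its 2 dimmer probe sets above the filter, with differences of 0.0585 and 0.50, did not pass either, and their groups overlapped. Of all 12520 genes, 68.4% had groups that did not overlap in this comparison. The Itgb3 probe set under the filter was also higher in WT non-pulsed cells, with 4.44 and 4.56 in WT N4 cells against 6.22 and 5.70 in WT non-pulsed cells.

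Cd44 had the highest adjusted p of the 7 genes that fell. It had 12.98 and 12.09 in WT N4 cells, against 13.82 and 13.32 in WT non-pulsed cells, with no overlap between the groups. It fell by 1.03 log2 units (SE 0.34, 95% interval −1.80 to −0.27, adjusted p = 0.0377). The call was lost in 8 of 19 alternative settings, among them leaving out WT N4 replicate 2 (log2 difference −0.59, adjusted p = 0.206) or WT non-pulsed replicate 1 (log2 difference −0.78, adjusted p = 0.187). Leaving out p50 cRel DKO N4 replicate 1 or 2 gave the same difference with adjusted p-values of 0.0516 and 0.0512. A second Cd44 probe set had 11.76 and 11.66 in WT N4 cells, against 12.86 and 12.90 in WT non-pulsed cells, a log2 difference of −1.17 with a limma adjusted p of 0.000618 over 27022 probe sets. The third fell by 1.12 log2 units.

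**Figure D2:**
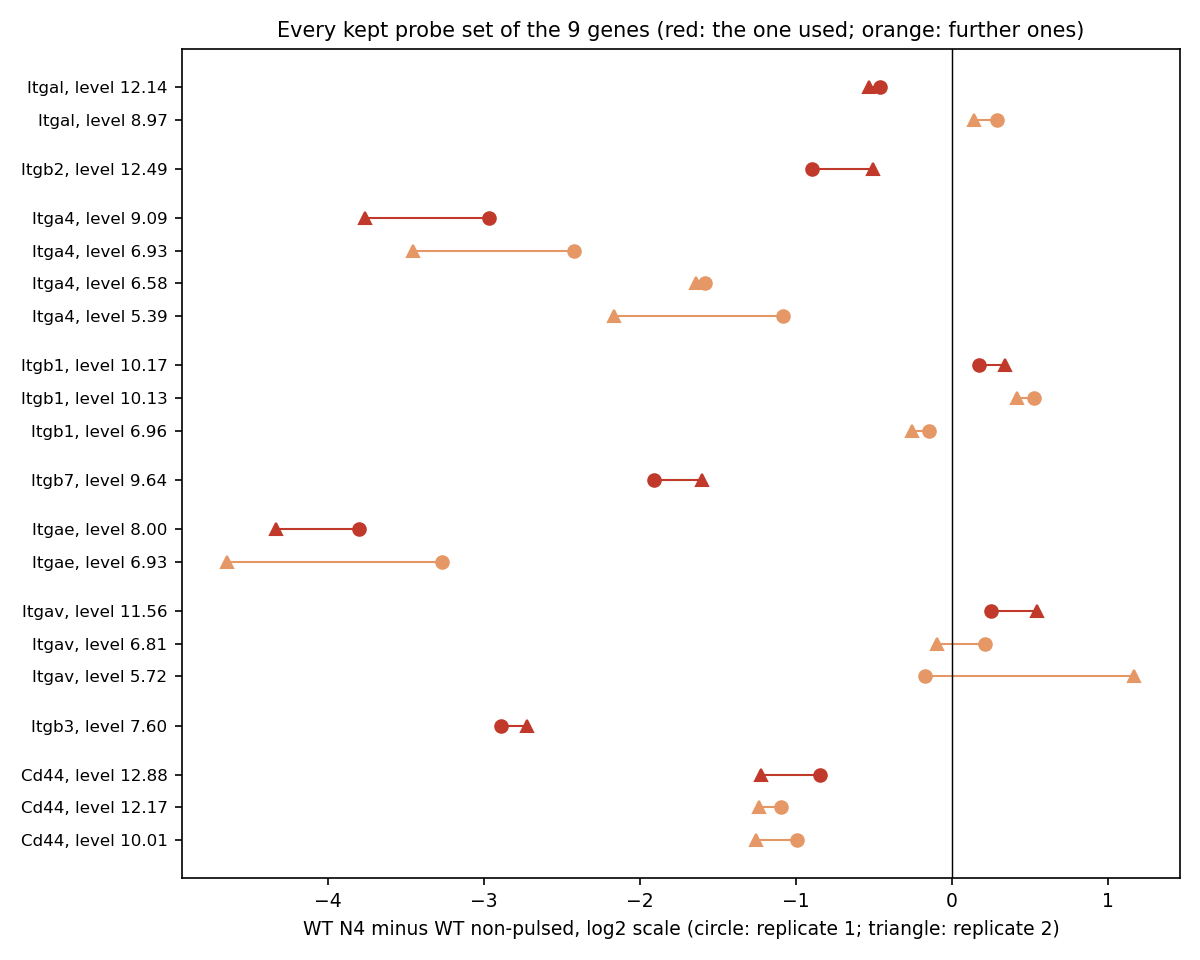
WT N4 minus WT non-pulsed on the log2 scale for all 20 kept probe sets of the 9 genes, with the arrays of equal replicate number subtracted (circle, replicate 1; triangle, replicate 2); red marks the probe set used and orange the others, each labelled with its mean level over the 8 arrays. All probe sets of Itga4, Itgae and Cd44 lie left of 0, whereas the 2 of Itgal lie on opposite sides.

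The falls of the 2 LFA-1 chains and of Cd44 depend on how the arrays are scaled. With every array centred on its median the median log2 difference of all genes was 0.30, in place of −0.10 as deposited, and Itgal, Itgb2 and Cd44 were at −0.10, −0.30 and −0.63 with adjusted p-values of 0.822, 0.492 and 0.361. Itga4, Itgae, Itgb3 and Itgb7 passed under that scaling and under quantile normalisation. The share of called genes that were higher in WT N4 cells was 42.3% as deposited, 52.6% after quantile normalisation and 61.1% after median centring.

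Markers of other cell types were lower in the same comparison. All 10 dendritic cell and macrophage markers measured were lower in WT N4 cells, with a summed signal of 5930 and 2243 in WT N4 cells and 2754 to 3921 in PKC theta KO N4 cells, against 72240 and 56370 in WT non-pulsed cells. The B cell sum was 1792 and 365.5 in WT N4 cells against 36710 and 24040 in WT non-pulsed cells, with 5 of 5 markers lower. The neutrophil sum was 687.1 and 250.3 in WT N4 cells against 20450 and 23920 in WT non-pulsed cells, with 5 of 5 lower. The platelet sum was 1176 and 510.1 in WT N4 cells against 17650 and 11400 in WT non-pulsed cells, with 5 of 6 lower. The NK cell sum was 646.6 and 380.9 in WT N4 cells against 9045 and 5867 in WT non-pulsed cells. It held only 2 of the 4 genes listed, of which Tyrobp fell and Eomes did not pass. In WT non-pulsed cells Tyrobp was at 13.12 and 12.31 and Eomes at 7.64 and 9.67, so this sum was mostly Tyrobp signal and is no measure of NK cells. No marker probe set had a signal of 0 on any array. The T cell sum was 43060 and 41920 in WT N4 cells against 28890 and 31510 in WT non-pulsed cells. Of 7 T cell markers measured, Cd5, Zap70 and Cd8a rose by 2.90, 1.56 and 1.07 log2 units, and Cd3d, Cd3e, Cd3g and Cd8b1, with differences from −0.10 to 0.01, did not pass. Several members are also expressed by such cells, for example Itgb3 by platelets and Itga4, Itgb2 and Cd44 by myeloid and B cells. The part of these cells was not tested for the fall of any member, Itgae, Itgb7 and Itgal included. On bulk arrays fewer cells of a type and less RNA per cell cannot be told apart.

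**Figure D3:**
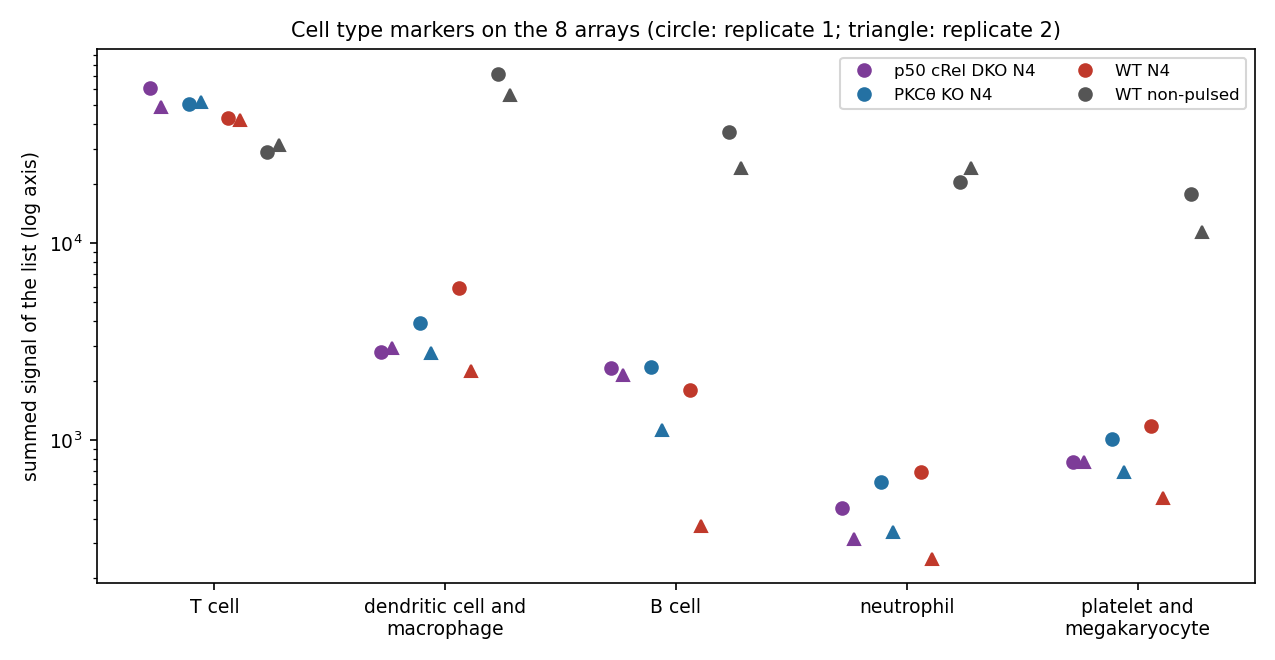
Summed signal of 5 marker lists (log axis) on the 8 arrays, with the groups side by side within each list. The 2 WT non-pulsed arrays stand far above the 6 N4 arrays for dendritic cell and macrophage, B cell, neutrophil and platelet markers, and below them for T cell markers.

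The second question is whether PKCθ or the 2 NF-kB subunits change these genes in cells that met the peptide. None of the 9 genes passed in PKC theta KO N4 against WT N4, where 0.024% of all genes were called (3 genes) and 371 genes, or 2.96%, had an unadjusted p under 0.05. Those 3 were the Y-linked genes Eif2s3y, Kdm5d and Uty, all lower in PKC theta KO N4 cells. None passed in p50 cRel DKO N4 against WT N4 either, where 0.519% were called (65 genes, among them the same 3 Y-linked ones) and 788, or 6.29%, had an unadjusted p under 0.05. Between p50 cRel DKO N4 and PKC theta KO N4 it was again 0 of 9, with 0.431% called (54 genes) and 897, or 7.16%, at an unadjusted p under 0.05. No member had an unadjusted p under 0.05 in any of these 3 comparisons. Those counts over all genes rest on few arrays: without p50 cRel DKO N4 replicate 1 or 2 the 65 were 15 and 13 and the 54 were 0 and 2, without WT N4 replicate 1 or 2 the 65 were 35 and 30, and without PKC theta KO N4 replicate 1 or 2 the 54 were 34 and 13. With so few genes called in the background, these counts alone say little of the members, and the intervals below give what the arrays can bound. Signal of other cell types also varied among the N4 arrays. The B cell sum was 2330 and 2140 in p50 cRel DKO N4 cells and 2363 and 1125 in PKC theta KO N4 cells, against 1792 and 365.5 in WT N4 cells. No B cell marker passed between these groups, and the part of such signal in the differences below was not tested.

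For the LFA-1 chains the intervals were narrow. Itgal had 12.19 and 12.13 in p50 cRel DKO N4 cells and 11.92 and 11.99 in PKC theta KO N4 cells, against 11.95 and 12.00 in WT N4 cells. The p50 cRel DKO arrays were both the highest of these 6, by a log2 difference of 0.18 (95% interval −0.09 to 0.45), and the difference for PKC theta KO was −0.02 (95% interval −0.29 to 0.25). Itgb2 had 12.54 and 12.46 in p50 cRel DKO N4 cells and 12.22 and 12.39 in PKC theta KO N4 cells, against 12.15 and 12.30 in WT N4 cells. Its difference was 0.28 (95% interval −0.03 to 0.59) in p50 cRel DKO N4 and 0.08 (95% interval −0.23 to 0.39) in PKC theta KO N4.

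Among the Itga4 partners, Itgb1 had the lowest unadjusted p in p50 cRel DKO N4. It had 9.80 and 10.23 in p50 cRel DKO N4 cells and 10.16 and 10.04 in PKC theta KO N4 cells, against 10.41 and 10.42 in WT N4 cells. All 4 knockout arrays were below both WT N4 arrays, yet the differences of −0.40 (95% interval −0.80 to 0.01, adjusted p = 0.805) in p50 cRel DKO N4 and −0.31 (95% interval −0.72 to 0.09, adjusted p = 1) in PKC theta KO N4 did not pass, and groups did not overlap for 30.5% and 25.8% of all genes in these comparisons. The next brightest Itgb1 probe set was also lower without overlap (log2 differences −0.50 and −0.27), and the third, at −0.0714 and 0.12, overlapped. Itga4 had 8.52 and 8.56 in p50 cRel DKO N4 cells and 8.80 and 8.05 in PKC theta KO N4 cells, against 8.38 and 7.65 in WT N4 cells, with differences of 0.53 (95% interval −0.15 to 1.21) and 0.41 (95% interval −0.27 to 1.09). The dimmer Itga4 probe sets above the filter went both ways, and none passed. They were at 0.69, −0.19 and −0.0187 in p50 cRel DKO N4. In PKC theta KO N4 they were at 0.17, −0.26 (without overlap) and 0.20. Itgb7 had 9.48 and 9.35 in p50 cRel DKO N4 cells and 8.77 and 9.59 in PKC theta KO N4 cells, against 8.83 and 9.40 in WT N4 cells. Its differences were 0.30 (95% interval −0.36 to 0.96) and 0.06 (95% interval −0.60 to 0.73).

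For Itgae the probe set used bounds little. It had 7.25 and 7.50 in p50 cRel DKO N4 cells and 5.71 and 6.87 in PKC theta KO N4 cells, against 6.48 and 7.78 in WT N4 cells. The PKC theta KO difference was −0.84 (95% interval −2.30 to 0.63), and that of p50 cRel DKO was 0.24 (95% interval −1.22 to 1.71). On this probe set p50 cRel DKO N4 minus PKC theta KO N4 was 1.08 (95% interval −0.38 to 2.54, adjusted p = 0.836), the widest gap between the knockouts among the 9 genes. The other Itgae probe set showed smaller gaps for PKC theta KO. It was at −0.08 in PKC theta KO N4, 0.30 in p50 cRel DKO N4 and 0.37 between the knockouts, with overlap, and none passed.

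Itgav had 11.43 and 11.64 in p50 cRel DKO N4 cells and 11.71 and 11.64 in PKC theta KO N4 cells, against 11.56 and 11.85 in WT N4 cells, with differences of −0.16 (95% interval −0.50 to 0.17) and −0.03 (95% interval −0.36 to 0.31). Its second probe set was at 0.13 and −0.11. The third, a dim one, was at −0.43 in p50 cRel DKO N4 and at −0.93 in PKC theta KO N4, there with no overlap between PKC theta KO N4 (4.697 and 5.81) and WT N4 (5.84 and 6.52), and none passed. Itgb3 had 6.95 and 7.41 in p50 cRel DKO N4 cells and 6.73 and 6.74 in PKC theta KO N4 cells, against 6.53 and 7.14 in WT N4 cells, with differences of 0.34 (95% interval −0.33 to 1.01) and −0.10 (95% interval −0.77 to 0.57). Cd44 had 12.93 and 12.67 in p50 cRel DKO N4 cells and 13.00 and 12.19 in PKC theta KO N4 cells, against 12.98 and 12.09 in WT N4 cells. On this probe set the groups overlapped, and the differences were 0.27 (95% interval −0.50 to 1.03) and 0.06 (95% interval −0.71 to 0.82). The second Cd44 probe set, with 12.10 and 12.33 in p50 cRel DKO N4 cells against 11.76 and 11.66 in WT N4 cells, had a difference of 0.51 that did not pass either (adjusted p = 0.423 over 27022 probe sets). The third was at 0.52 and did not pass (adjusted p = 0.836). Both were without overlap there, as were 30.5% of all genes. In PKC theta KO N4 against WT N4 they were at 0.14 and 0.24, with overlap.

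**Figure D4:**
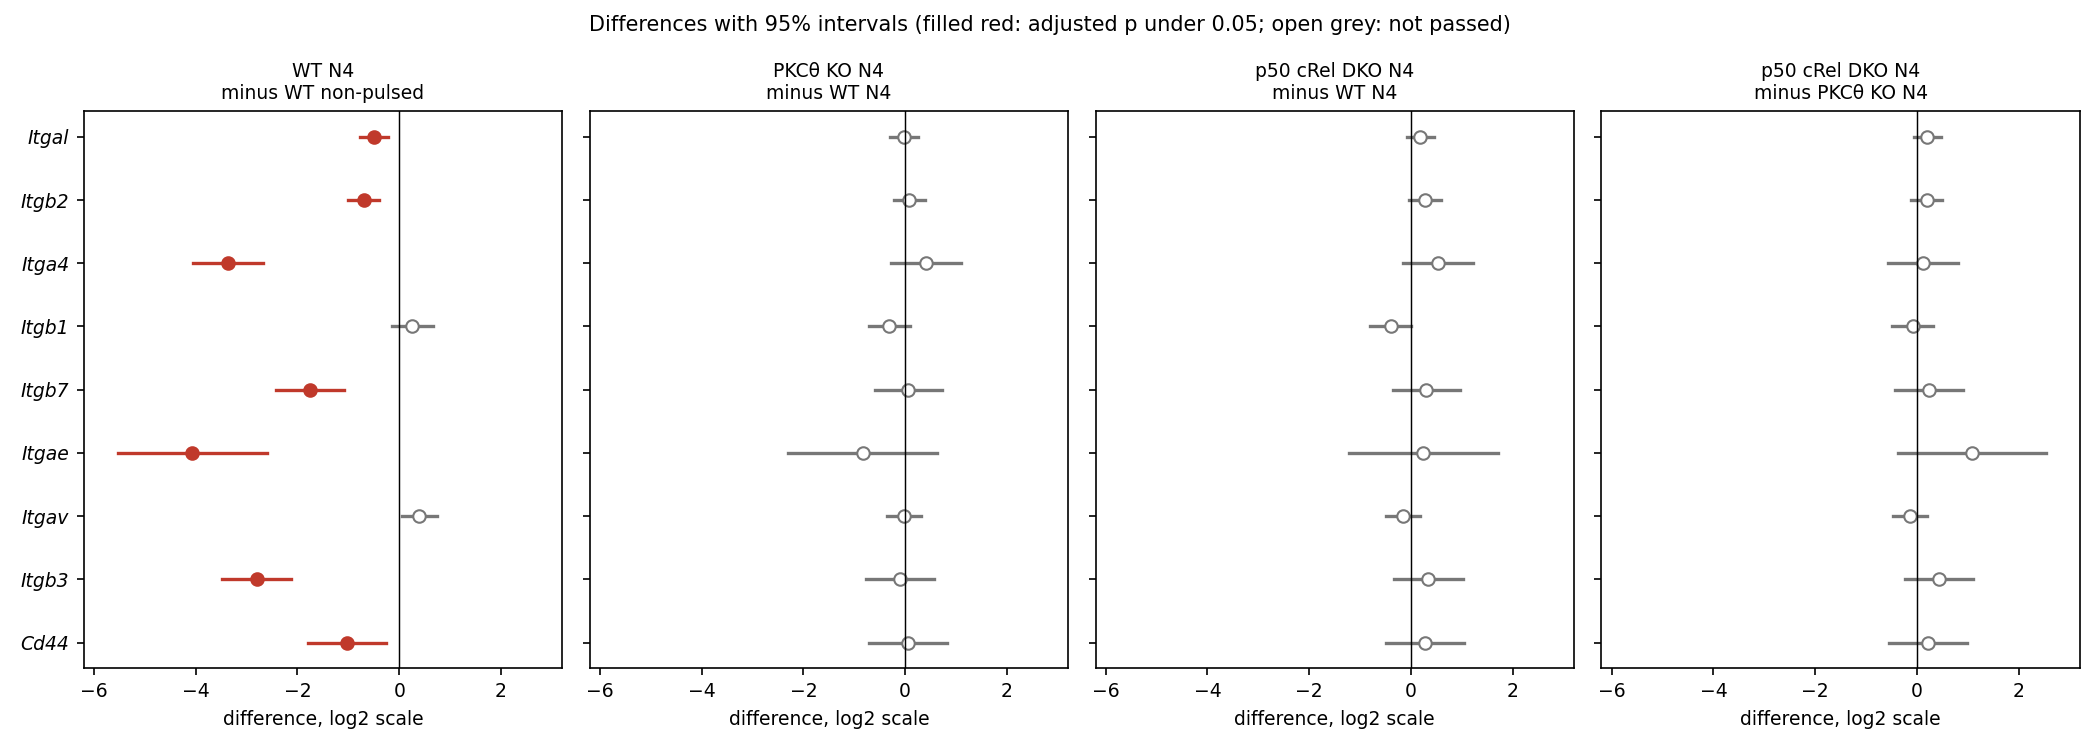
Log2 differences of the 9 genes with 95% intervals in 4 comparisons, filled red where the adjusted p was under 0.05 and open grey where it was not. In the left panel 7 genes lie below 0 with filled points, and in the other 3 panels every point is open, with the widest intervals for Itgae.

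Both knockouts can also be set against WT non-pulsed cells, which share their control with the first comparison. In PKC theta KO N4 cells 7 of 9 genes fell (40.6% of all genes called, 24% lower), and in p50 cRel DKO N4 cells 5 of 9 fell (39.3% called, 22.8% lower). Itga4 differed by −2.84 in p50 cRel DKO N4, −2.96 in PKC theta KO N4 and −3.37 in WT N4, and Itgae by −3.82, −4.90 and −4.07. Itgb7 differed by −1.45, −1.69 and −1.76 in the same order of groups, and Itgb3 by −2.46, −2.90 and −2.81. Itgb2 fell in all 3, with differences of −0.42, −0.62 and −0.70, but after median centring it was at −0.0339, −0.21 and −0.30 (adjusted p = 0.947, 0.649 and 0.492) and passed in none. Itgal and Cd44 did not pass in p50 cRel DKO N4, with differences of −0.31 (adjusted p = 0.0649) and −0.77 (adjusted p = 0.106), and the direct comparison with WT N4 above gives no passed difference for either. Against WT non-pulsed cells both did pass after quantile normalisation, Itgal at −0.52 (adjusted p = 0.00962) and Cd44 at −0.90 (adjusted p = 0.0399). Cd44 also passed with the mean of its probe sets (adjusted p = 0.0221) and in a fit of only these 2 groups (adjusted p = 0.0248), and its 2 other probe sets passed with log2 differences of −0.66 and −0.61 (adjusted p = 0.00868 and 0.0481 over 27022 probe sets). After median centring neither passed, with Itgal at 0.0768 and Cd44 at −0.38. The call of Itgb2 in p50 cRel DKO N4 was lost in 10 of 19 alternative settings, among them 5 of 8 leave-outs of 1 array, with adjusted p-values of 0.196 without WT non-pulsed replicate 1, 0.0929 and 0.140 without p50 cRel DKO N4 replicate 1 or 2, and 0.0516 and 0.0515 without WT N4 replicate 1 or 2. In PKC theta KO N4 that of Cd44 was lost in 10 of 19 settings and 5 of 8 leave-outs, most without PKC theta KO N4 replicate 2 (log2 difference −0.57, adjusted p = 0.265) and WT non-pulsed replicate 1 (−0.72, adjusted p = 0.219), that of Itgal without WT non-pulsed replicate 2 (adjusted p = 0.0548) and that of Itgb2 without PKC theta KO N4 replicate 1 (adjusted p = 0.0506). After median centring Cd44 and Itgal did not pass in PKC theta KO N4 either (adjusted p = 0.417 and 0.807). Neither knockout was measured without peptide, so a response inside a knockout is not available here.

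For 7 of the 9 genes the 4 group means ranked WT non-pulsed first and p50 cRel DKO N4 next, Itgb1 and Itgav being the others. The share of all genes with that order was not counted, so the count has no background and is not read as a result about these genes. Among the 3 groups with peptide, no neighbours in the order of any gene differed past the test. The step from WT non-pulsed to p50 cRel DKO N4 passed for Itga4, Itgae, Itgb2, Itgb3 and Itgb7.

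The 2 genes with the nearest profile to each member that fell were found by the root mean square difference over the 8 arrays after each gene was centred on its own mean, among 11852 named genes. For Itga4 they were Grn (0.13 log2 units), which encodes progranulin, and Tlr1 (0.19), a receptor for bacterial lipoproteins. For Itgb3 they were Slc14a1 (0.12), a urea transporter, and Cnr2 (0.15), the cannabinoid receptor of immune cells. This distance is not scaled to a gene's spread over the arrays, so its size is not compared between members. For Itgae the nearest were S1pr1 (0.59), the receptor that guides T cells out of lymph nodes, and Pik3ip1 (0.60), an inhibitor of PI3 kinase. For Itgb7 they were Hacl1 (0.13) and Syt11 (0.13), for Cd44 Chmp1a (0.12) and the immunoglobulin heavy chain gene Ighm (0.15), for Itgb2 Hdac5 (0.05) and Dram2 (0.07), and for Itgal Med16 (0.05) and Epb41l2 (0.05).

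Counts over related genes in WT N4 against WT non-pulsed stand against the 40.7% of all genes called, 23.5% lower and 17.2% higher. In this comparison the dendritic cell and macrophage, neutrophil and platelet markers had median differences of −4.12, −5.29 and −2.32, and the T cell markers one of 0.0055. The part of other cell types in the falls of all lists below was not tested, so these falls are not shown to be changes within T cells. Of 19 other integrin chains 9 were measured, and 5 fell and 1 rose, or 3 and 2 after median centring. Itgam, the CD11b chain of neutrophils and macrophages, fell by 3.85 log2 units (SE 0.36, adjusted p = 0.000105), Itga2b of platelets fell by 2.07 and Itgax, the CD11c chain by which dendritic cells were removed, fell by 2.04. Itga3, a laminin receptor chain, rose by 1.61 (SE 0.25, adjusted p = 0.0011), with a mean of 8.16 ± 0.23 in WT N4 cells and 6.55 ± 0.25 in WT non-pulsed cells (SD, n = 2 arrays each, limma). The list's median was −0.83.

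The machinery that switches integrins on and ties them to actin was lower in part. Of 36 genes measured (43 listed), 18 fell and 1, Actn4, rose by 0.43, with a median of −0.55. The adaptors Skap1 and Fyb, which link the T cell receptor to integrin activation, fell, with log2 differences of −1.18 and −2.64 (adjusted p = 0.000524 and 0.000365). The related adaptor Skap2 fell by 1.84 (adjusted p = 0.000101), and Cyth1, a partner of the Itgb2 tail, by 1.24 (adjusted p = 0.000707). After median centring 5 genes of this list fell and none rose.

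Of 16 integrin ligands measured (23 listed), 9 fell and none rose (7 and 1 after median centring), with a median of −0.83. The 4 with the lowest p-values were Lgals3 (−3.78), which encodes galectin-3, Fn1 (−5.42), fibronectin, Mfge8 (−2.14), a ligand of the Itgav receptors, and Thbs1 (−4.07), thrombospondin. Fn1 had 7.72 and 5.89 in WT N4 cells, against 12.64 and 11.81 in WT non-pulsed cells. Of 17 genes measured around CD44 and hyaluronan (25 listed), 7 fell and 2 rose (5 and 2 after median centring), with a median of −0.37. The proteases Mmp14 (−3.90) and Mmp9 (−4.76), the hyaluronan-binding proteoglycan Vcan (−3.39) and the scavenger receptor Stab1 (−2.52) were lower with the lowest p-values, and the cytoskeletal linkers Nf2 (1.15) and Rdx (0.61) rose.

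Selectins, their ligands and other lymphocyte adhesion receptors went both ways, with 7 of 26 measured genes (31 listed) higher and 8 lower, and a median of −0.27, but 8 higher and 4 lower after median centring. Cd6, a T cell receptor for ALCAM, rose by 2.47 log2 units (SE 0.21, adjusted p = 7.57e-05), and Chst2, a sulphotransferase of selectin ligands, by 3.95 (SE 0.55, adjusted p = 0.000688). Pecam1 of endothelium and leukocytes fell by 2.67 and St3gal6, a sialyltransferase of selectin ligands, fell by 1.50. Of 24 TGF-beta pathway genes measured (28 listed), a pathway that induces CD103, 10 fell and 1 (Smad5, 0.77) rose, with a median of −0.23. These 11 of 24 calls are near the 40.7% of all genes called. Both receptor genes fell, Tgfbr2 by 1.86 log2 units (SE 0.12, adjusted p = 2.68e-05), with 10.99 and 10.93 in WT N4 cells against 12.86 and 12.79 in WT non-pulsed cells, and Tgfbr1 fell by 1.24. The transcription factor gene Runx1 fell by 1.90 and the inhibitor Smad7 fell by 1.43. The list's 11 calls were 4 after median centring, 6 without WT non-pulsed replicate 1 and 7 without WT N4 replicate 1.

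**Figure D5:**
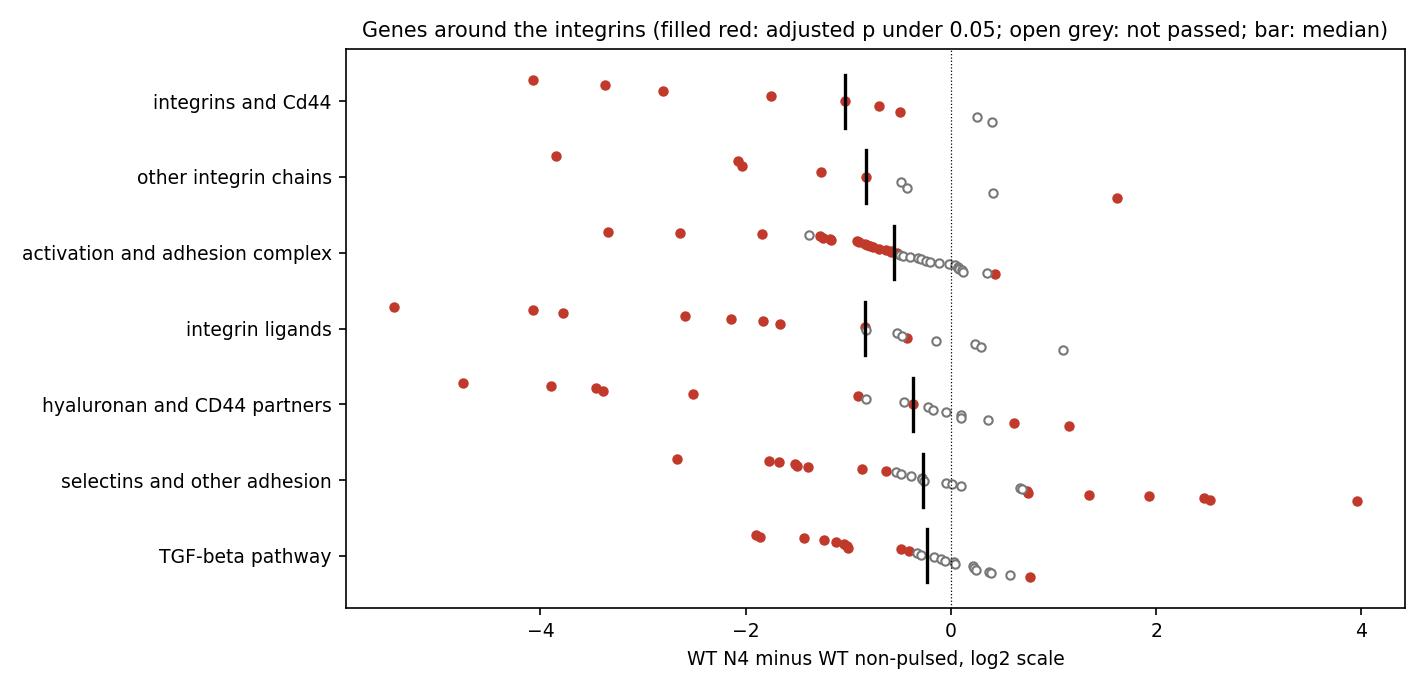
WT N4 minus WT non-pulsed on the log2 scale for the 9 genes and for 6 lists of related genes; filled red points had an adjusted p under 0.05, open grey ones did not, and the bar is the list's median. The members' median of −1.03 is the lowest of the 7 rows, and Chst2 at 3.95 is the highest point.

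In the comparisons of knockouts only 2 genes of these lists passed. Cd2, a T cell adhesion receptor that binds CD48 in mice, had 11.02 and 10.76 in p50 cRel DKO N4 cells and 11.95 and 11.90 in PKC theta KO N4 cells, against 11.90 and 11.85 in WT N4 cells. It fell by 0.98 log2 units in p50 cRel DKO N4 against WT N4 (adjusted p = 0.0206) and by 1.03 against PKC theta KO N4 (adjusted p = 0.022). Both calls were lost after median centring (adjusted p = 0.451 and 0.452) and without the mean-variance trend (adjusted p = 0.0916 and 0.0924). Each was also lost without any 1 of the 4 arrays it compares, with adjusted p-values up to 0.206 against WT N4 and 0.205 against PKC theta KO N4, both without p50 cRel DKO N4 replicate 2. Nid1, a basement membrane protein, had 4.21 and 4.74 in p50 cRel DKO N4 cells, against 6.39 and 7.27 in PKC theta KO N4 cells (log2 difference −2.35, adjusted p = 0.0453). The p50 cRel DKO N4 levels lie near 4, the lowest that log2(signal + 16) can take, so the size depends on the pseudocount. The call was lost with a pseudocount of 1 (−3.93, adjusted p = 0.0567) or 64 (−1.21, adjusted p = 0.0788) and without the filter (adjusted p = 0.0883). It was also lost without any 1 of the 4 arrays compared or either WT non-pulsed array, with adjusted p-values between 0.0524 without PKC theta KO N4 replicate 1 and 0.381 without p50 cRel DKO N4 replicate 1.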

How the data were processed

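RNA of CD8 T cells was measured on 8 one-colour Affymetrix arrays, 2 in each of 4 groups taken from the sample titles. The deposited values are intensity values, 1 linear signal per probe set, and the submitters' processing notes name the software GCOS 1.4 and the algorithm MAS5 for them; each array's 2% trimmed mean was 500. No detection calls were used, and the number of arrays limits the precision.

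The 64 control probe sets were left out, leaving 45037. Values became log2(signal + 16). Probe sets with a mean under the 40th percentile (5.38) were dropped, leaving 27022, and the probe set with the highest mean was kept for each gene, using only probe sets with 1 symbol (34945 of the annotation, against 932 with several and 9160 without one here). Such a filter keeps a gene that is high in a single group. limma 3.58.1 in R 4.3.3 fitted 4 group means (4 residual degrees of freedom, 8.6 in all) with a mean-variance trend, and p-values were Benjamini-Hochberg adjusted over 12520 genes in 6 comparisons.

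The members and gene lists (213 symbols, 167 measured) were chosen with earlier results of these data known. The text names all members, Prkcq and Rel, up to 4 genes with the lowest p per list and comparison, and the 2 nearest profiles of each member called. Sex-linked genes, further cell type markers, Actn4, Smad5, Nf2, Rdx and Itgb3's dim probe set were named after their values were seen. Alternatives covered the pseudocount, filter, scaling, probe set summary, trend, samples in the fit, replicate block and each array left out. Tested on simulated data for WT N4 against WT non-pulsed, with 12520 genes, the fit recovered 34 of 34 genes lowered by 3 log2 units, 30 of 34 lowered by 2 and 13 of 33 lowered by 1. Only 33 or 34 genes were changed at each size of change, whereas 40.7% of genes were called in the real comparison. The adjusted p therefore sets another cutoff there, and these rates need not carry over.

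Promoter sequences and gene positions are RefSeq's, GRCm38.p6.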

Additional observations from a re-analysis of the deposited data

How the results depend on the processing

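Of the 9 genes, the number past the test in WT N4 against WT non-pulsed was 7, and it was 4 after median centring, as it was for PKC theta KO N4 against WT non-pulsed (also 7 as reported). Leaving out 1 array at a time gave 6 to 7 in WT N4, 5 to 7 in PKC theta KO N4 and 4 to 5 in p50 cRel DKO N4, each against WT non-pulsed, and 0 in the 3 comparisons between groups with peptide, which stayed at 0 in every setting run. Itga4, Itgae, Itgb3 and Itgb7 passed in WT N4 against WT non-pulsed in all 19 settings.

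Replicate numbers from the titles could be used as a replicate block, but the labels do not say what a number stands for and there are only 2 pairs. Deviations of same-numbered arrays from their group means correlated at 0.255 to 0.579 across genes. With the block, 8 members passed in WT N4, 8 in PKC theta KO N4 and 7 in p50 cRel DKO N4 against WT non-pulsed, with Itgav gained in WT N4 (adjusted p = 0.0209) and PKC theta KO N4 (0.0279), Cd44 and Itgal gained in p50 cRel DKO N4 (0.00258 and 0.0212), and none in the other 3. Over all genes the block gave 200 calls in p50 cRel DKO N4 against WT N4 in place of 65, and 152 against PKC theta KO N4 in place of 54. Median centring gave 36 and no trend 35 in place of 65. No trend gave 17, no filter 28, every probe set 35 and a fit of only the 2 groups 98 in place of 54. Leaving out 1 array gave 13 to 75 in place of 65 and 0 to 65 in place of 54. Testing every kept probe set gave 7939 calls over probe sets in WT N4 against WT non-pulsed, against 5101 genes. Over the settings run the 3 calls of PKC theta KO N4 against WT N4 were between 0 and 5.

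Differences that changed sign were all ones that had not passed, and the cause was not tested. Against WT non-pulsed, Itgb1 in PKC theta KO N4 was at 0.11 after quantile normalisation, 0.35 after median centring and 0.021 with the mean of its probe sets, Itgav there was at −0.0346 with that mean, and after median centring Itgal and Itgb1 in p50 cRel DKO N4 were at 0.0768 and 0.25. Itgav in p50 cRel DKO N4 minus PKC theta KO N4 was at 0.20 with the mean of its probe sets. With 1 array left out, PKC theta KO N4 minus WT N4 ran from −0.39 to 0.50 for Cd44, −0.0542 to 0.0166 for Itgal, −0.17 to 0.12 for Itgav, −0.0023 to 0.17 for Itgb2, −0.40 to 0.21 for Itgb3 and −0.35 to 0.47 for Itgb7. p50 cRel DKO N4 minus WT N4 ran from −0.18 to 0.71 for Cd44 and −0.40 to 0.89 for Itgae. p50 cRel DKO N4 minus PKC theta KO N4 ran from −0.19 to 0.62 for Cd44, −0.26 to 0.49 for Itga4, −0.30 to 0.13 for Itgb1 and −0.17 to 0.65 for Itgb7. Minus WT non-pulsed, Itgb1 ran from −0.13 to 0.10 in PKC theta KO N4 and −0.36 to 0.0762 in p50 cRel DKO N4. The number of arrays, 2 a group, limits what can be bounded.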
